A study of Homo sapiens with 2 samples.

Results

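The genes described here are the zinc finger genes of human chromosome 19, taken as the protein-coding genes of GENCODE 44 on that chromosome whose symbol is ZNF followed by a number. There were 240, of which 237 had a GRCh38 start site in the annotation used and could be compared with the peaks. Protein-coding genes compared in this way numbered 19819 in all. The study looked for genes that ING5 may regulate, by ChIP-seq with a Proteintech antibody against ING5 in HepG2, an established human liver cancer line that received no treatment. There was 1 ING5 library of 12416160 fragments and 1 input DNA library from the same untreated line, of 9915170 fragments, which entered as the control of the peak list. With no replicate, no difference was tested: the 95% intervals below are exact binomial intervals, or order-statistic intervals for medians, and cover counting error only. Neighbouring genes are not independent of one another, so these intervals are narrower than the true uncertainty may be.

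C2H2 zinc finger genes are the most numerous family of transcription factor genes in the human genome, and chromosome 19 carries them in tandem clusters that arose by repeated duplication. Many of them encode a KRAB domain, which recruits the scaffold protein TRIM28 and, through it, the histone methyltransferase SETDB1 and heterochromatin proteins, so that the factor silences its target sequences, often transposable elements. ING5 uses its PHD finger to recognise histone H3 methylated at active promoters, and it works as part of MYST histone acetyltransferase complexes. In many cell types the clusters themselves carry marks of heterochromatin over their gene bodies while their promoters stay CpG-rich.

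An ING5 peak was rare at the promoters of these genes. A promoter peak is one with its summit within 1000 bp of any annotated transcription start of the gene. Only 16 of the 237 chromosome 19 ZNF genes had one (6.75%, 95% interval 3.91 to 10.7), while the share over all protein-coding genes was 30.9%. Other chromosome 19 genes had a promoter peak at 295 of 1234 (23.9%, 21.6 to 26.4). ZNF genes on other chromosomes had one at 99 of 235 (42.1%, 35.7 to 48.7). The interval of the chromosome 19 ZNF genes thus overlapped neither comparison group, and the ZNF genes elsewhere had the highest share of the 3. The 3 members without a GRCh38 start in the annotation, ZNF43, ZNF442 and ZNF714, were not counted; from their RefSeq starts the nearest summits lay 438862, 71035 and 315117 bp away.

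**Figure D1:**
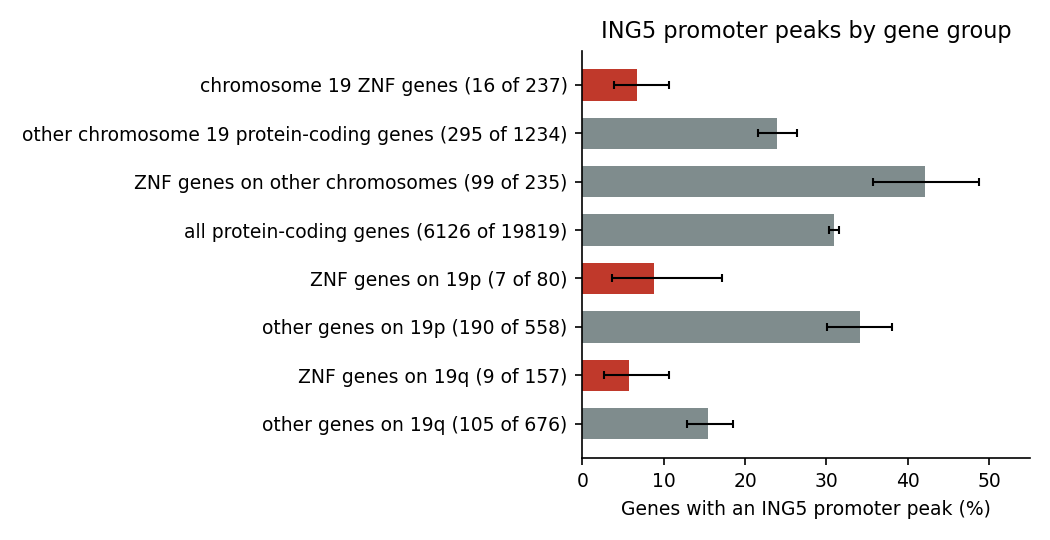
Share of genes with an ING5 promoter peak (x axis, percent) in 8 groups of protein-coding genes (y axis, with counts). Bars start at 0 and error bars are exact binomial 95% intervals. The 3 red bars, all of chromosome 19 ZNF genes, lie between 5.73% and 8.75%, and the grey bars between 15.5% and 42.1%.

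The promoters below are those of bound members with significant peaks, set beside unbound neighbours; they do not cover the CpG-rich end of the members. They are the 250 bases before the RefSeq start (GRCh38.p14, read on the strand of the gene, 5′ to 3′), with each CpG in capitals. The bound members are ZNF101, which had the most significant peak, and ZNF254 and ZNF507, which tie with ZNF302 and ZNF530 for the next place and were taken in file order. The unbound members are those whose starts lie nearest to them; ZNF506, nearest to ZNF101, is named only. ZNF101, bound, is at chr19:19668589-19668838 on the plus strand, with 14 CpG. ZNF254 is at chr19:24086937-24087186 on the plus strand, with 7 CpG. Its peak lies not here but at an alternative upstream start, −53402 bp from the RefSeq start. ZNF726, unbound, is at chr19:23914636-23914885 on the plus strand, with 13 CpG. ZNF507, bound, is at chr19:32345360-32345609 on the plus strand, with 23 CpG, and ZNF536, unbound, is at chr19:30372134-30372383 on the plus strand, with 4.
ZNF101: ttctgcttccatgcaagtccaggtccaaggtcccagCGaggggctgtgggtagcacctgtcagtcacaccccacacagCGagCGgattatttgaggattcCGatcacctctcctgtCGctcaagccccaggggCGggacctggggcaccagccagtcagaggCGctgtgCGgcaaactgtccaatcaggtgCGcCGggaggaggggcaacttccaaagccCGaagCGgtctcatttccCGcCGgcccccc
ZNF254: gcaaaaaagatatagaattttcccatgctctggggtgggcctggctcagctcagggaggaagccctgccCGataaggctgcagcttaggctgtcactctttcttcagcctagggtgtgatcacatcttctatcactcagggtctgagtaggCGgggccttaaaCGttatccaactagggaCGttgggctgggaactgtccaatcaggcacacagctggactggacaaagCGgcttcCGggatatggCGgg
ZNF726: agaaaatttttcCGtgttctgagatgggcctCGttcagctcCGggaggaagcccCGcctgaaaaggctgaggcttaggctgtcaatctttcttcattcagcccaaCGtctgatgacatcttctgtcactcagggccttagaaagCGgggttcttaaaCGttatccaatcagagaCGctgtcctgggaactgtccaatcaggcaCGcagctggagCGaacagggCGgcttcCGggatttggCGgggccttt
ZNF507: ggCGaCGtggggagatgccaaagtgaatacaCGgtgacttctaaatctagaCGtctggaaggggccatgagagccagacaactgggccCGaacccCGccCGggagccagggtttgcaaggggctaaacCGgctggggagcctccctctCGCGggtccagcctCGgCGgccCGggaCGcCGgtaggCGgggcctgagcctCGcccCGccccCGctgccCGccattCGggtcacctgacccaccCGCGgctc
ZNF536: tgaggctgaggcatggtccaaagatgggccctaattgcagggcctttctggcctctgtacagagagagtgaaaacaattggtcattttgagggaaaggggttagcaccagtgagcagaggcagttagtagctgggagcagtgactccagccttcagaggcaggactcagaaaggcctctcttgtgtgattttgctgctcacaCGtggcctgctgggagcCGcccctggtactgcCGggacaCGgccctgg

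None of the 16 bound members had a tall peak. Pileup, the number of fragments over the summit as the authors' peak caller counted it, ran from 8 to 13 with a median of 11 (median interval 9 to 12). Promoter peaks of all genes started at 7. Promoter peaks of other chromosome 19 genes had a median of 12 (11 to 12) and reached 40 fragments. Those of ZNF genes elsewhere had a median of 12 (12 to 13) and up to 48, and those of all genes a median of 13 (13 to 13) and up to 118. The median intervals of members and of both comparison groups thus overlapped or touched, while that of all genes lay above that of members. What members lacked was peaks above 13 fragments. Fold enrichment over local background was 5.40 at the median, against 6.47, 7.01 and 7.01 in the same groups. No member stood among the 1000 most significant peaks of the 8608 in the list, where 4.77% of all genes had a promoter peak, and 5 stood in the more significant 4304, where 19.3% of all genes had one. That limit falls among peaks of equal p, and with all of these kept, 4775 peaks, the count was 7 members, against 20.9% of all genes. In the list, 2599 peaks were more significant than the best peak of a member. The median width was 254.5 bp (interval 201 to 365), against 385 bp (347 to 426) at other chromosome 19 genes and 363 bp (321 to 427) at ZNF genes elsewhere. Both of these intervals overlapped that of the members. Over all genes it was 389 bp (381 to 397), an interval above that of the members.

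On 19p, 7 members were bound. ZNF101 had the most significant peak of all members, with 13 fragments and 7.55-fold enrichment at chr19:19668916-19669447, its summit 195 bp downstream of a start. It opens the large 19p cluster next to the centromere. ZNF14, a close neighbour in the same cluster, had 11 fragments at 4.17-fold over a raised local background of 1.88 fragments, the least significant of the member peaks and, at 554 bp downstream, the one farthest from a start. In the middle of that cluster ZNF493 had 13 fragments, as many as ZNF101, but over a local background of 1.63 fragments, which made 5.33-fold. At its far end ZNF254 had 12 fragments and 7.01-fold enrichment, 380 bp downstream of a start that is not its canonical one. ZNF554, a gene studied in placental trophoblast, had 11 fragments at 6.47-fold, 458 bp downstream. ZNF557 had 10 fragments at 5.18-fold, 143 bp downstream, and its peak was also in reach of a start of MBD3L3, a member of the MBD3-like family. ZNF44 had 9 fragments at 5.40-fold, 146 bp downstream. These peaks differed by at most 4 fragments, so their order in height is within counting error.

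On 19q, 9 members were bound, and none of their peaks exceeded 12 fragments. ZNF507 stands alone, with no other member within 500 kb, and had 12 fragments at 7.01-fold at chr19:32345719-32346031, 273 bp downstream. ZNF302 had 12 fragments at 7.01-fold, only 53 bp downstream of a start, and shares this promoter head to head with SCGB2B2, a secretoglobin gene. Its neighbours ZNF599 and ZNF792 had 9 fragments each at 5.40-fold, 274 and 266 bp downstream. These 3 lie in 1 cluster of 5 members, the only cluster of more than 2 in which most members were bound. ZNF526 had 9 fragments at 5.40-fold, 137 bp downstream, with a start of the death effector domain gene DEDD2 in reach of the same peak. ZNF234 had 8 fragments at 4.86-fold and was the only member with its summit upstream of the nearest start, at −86 bp. That start, at 44141910, is not its canonical one, at 44141554, and the summit lies downstream of the canonical start. Near the end of 19q, ZNF530 had 12 fragments at 7.01-fold, 391 bp downstream. Next to it ZNF134 had 11 fragments at 6.47-fold, 215 bp downstream. ZNF304, which encodes a KRAB repressor that silences tumour suppressor genes in colorectal cancer, had 8 fragments at 4.86-fold, 345 bp downstream. No 2 members shared a peak, and no member had a second promoter peak.

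**Figure D2:**
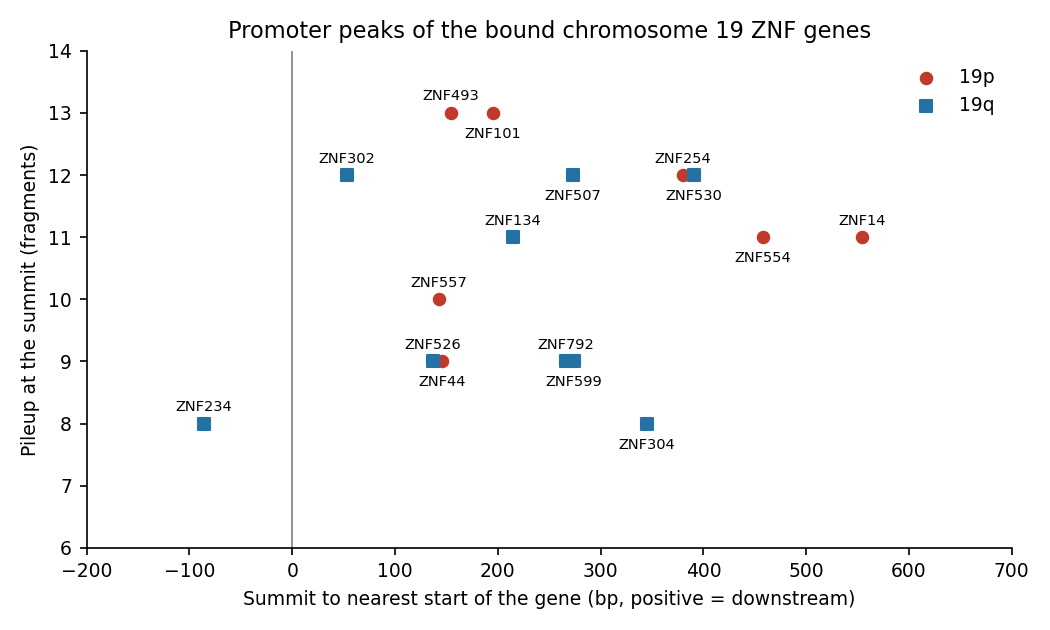
Pileup at the summit (y axis, fragments, drawn from 6) against the distance of the summit from the nearest start of the gene (x axis, bp, positive downstream) for the 16 bound members, 1 point each, from 1 library without error bars. The pileups run from 8 to 13 fragments, and 15 of 16 summits lie downstream, between 53 and 554 bp.

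The summits lay mainly downstream of the start, as they did in the other groups. The median offset was 240.5 bp downstream (interval 143 to 380). It was 212 bp (160 to 251) at other chromosome 19 genes and 162 bp (112 to 203) at ZNF genes elsewhere, and these intervals overlap that of the members. Downstream summits made up 15 of 16 at members (93.8%, 69.8 to 99.8), 72.2% (66.7 to 77.2) at other chromosome 19 genes and 72.7% (62.9 to 81.2) at ZNF genes elsewhere. No member had its summit more than 200 bp upstream or more than 600 bp downstream. With 16 peaks, a difference in position between members and the other groups was not detectable. With a limit of 200 bp in place of 1000 bp, 7 members had a promoter peak (2.95%), against 13.5% of all genes. The 1000 bp limit itself decided little: the member farthest inside it was ZNF14 at 554 bp, and the nearest outside it was ZNF576 at −1029 bp, with a peak of 8 fragments that lies in the promoter of IRGQ, an immunity-related GTPase gene.

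**Figure D3:**
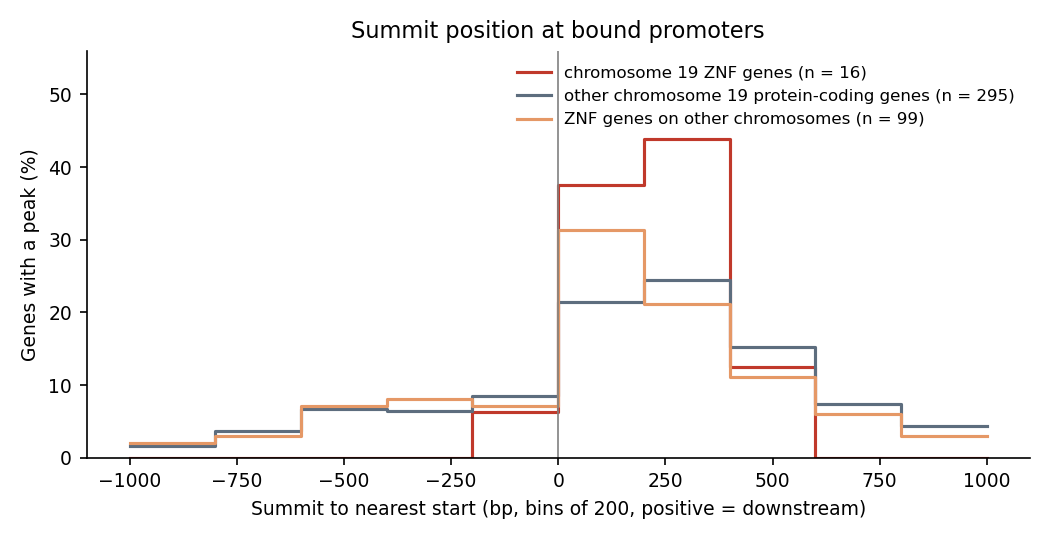
Distribution of the summit's distance from the nearest start (x axis, bp in bins of 200, positive downstream) as percent of the genes with a peak in each group (y axis), for chromosome 19 ZNF genes (n = 16), other chromosome 19 genes (n = 295) and ZNF genes elsewhere (n = 99). The bins from 0 to 200 and 200 to 400 bp downstream hold 6 and 7 of the 16 members.

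Along the chromosome the bound members were few in every large cluster. Members whose canonical starts follow each other within 500 kb were taken as a cluster, and the arms were split at the widest stretch without annotated genes, from 24163485 to 27638482. This gave 12 clusters with 229 members, and 8 single members. On 19p, 7 of 80 members had a peak (8.75%, 3.59 to 17.2), against 190 of 558 other genes of that arm (34.1%, 30.1 to 38.1). On 19q it was 9 of 157 (5.73%, 2.65 to 10.6) against 105 of 676 (15.5%, 12.9 to 18.5). Members thus had a lower share than their neighbours on both arms, and the intervals of the 2 arms overlapped for members.

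Of the 8 clusters with 10 or more members, 4 held no promoter peak of a member. On 19q these were the cluster from ZNF175 to ZNF331 with 39 members (0%, upper bound 9.03%), the one from ZNF565 to ZNF573 with 24 (upper bound 14.2%) and the one from ZNF628 to ZNF835 with 16 (upper bound 20.6%). On 19p it was the cluster from ZNF414 to ZNF846 with 13 (upper bound 24.7%). The other 4 had a peak at few of their members. The 19p cluster from ZNF101 to ZNF254 had 4 of 35 and that from ZNF653 to ZNF791 had 1 of 24, ZNF44. On 19q, the cluster from ZNF575 to ZNF180 had 1 of 23, ZNF234, and the cluster from ZNF264 to ZNF446 had 3 of 41. In these 8 clusters together 9 of 215 members were bound (4.19%, 1.93 to 7.80), against 7 of 22 in smaller clusters or alone (31.8%, 13.9 to 54.9). The small group held ZNF554, ZNF557, ZNF302, ZNF599, ZNF792, ZNF526 and ZNF507, and its share was close to the 30.9% of all genes. The split at 10 members was not planned and was not rerun with other gaps.

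**Figure D4:**
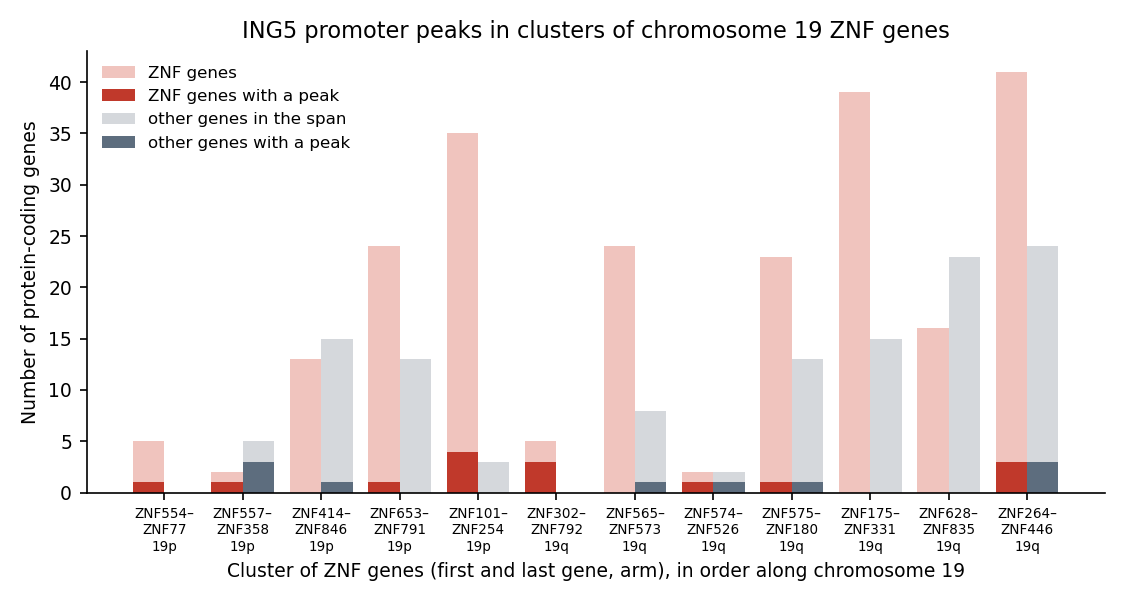
Number of protein-coding genes (y axis) in the 12 clusters of chromosome 19 ZNF genes, in order along the chromosome (x axis, first and last member and arm). Pale bars count all genes and dark bars those with an ING5 promoter peak, in red for ZNF genes and in grey for other genes within the span; 4 clusters, with 13, 24, 39 and 16 ZNF genes, have no dark red bar.

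Many bound members stood first or last in their cluster, a pattern looked for after the values were seen. Of the 24 members at either end of the 12 clusters, 7 were bound (29.2%, 12.6 to 51.1): ZNF554, ZNF557, ZNF101, ZNF254, ZNF302, ZNF792 and ZNF526. Of the 205 members between them, 8 were (3.90%, 1.70 to 7.54). With clusters split at gaps over 250 kb, 6 of 34 end members were bound (17.6%, 6.76 to 34.5) against 8 of 190 inner ones (4.21%, 1.84 to 8.13), and the intervals then overlapped. Every cluster has a first and a last member whatever its size, so ends make up a larger part of small clusters. Of the bound ends, ZNF554, ZNF557, ZNF302, ZNF792 and ZNF526 lay in clusters of 2 or 5 members. The others, ZNF101 and ZNF254, were the ends of the cluster of 35 members. No other cluster of more than 5 members had a bound end. The pattern at ends thus overlaps with the difference by cluster size, and position apart from size was not tested. The longest runs of neighbouring members without a peak were 71 members from ZNF226 to ZNF543 on 19q, 30 from ZNF358 to ZNF136 on 19p and 26 from ZNF565 to ZNF574 on 19q.

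Other protein-coding genes within the clusters also had few peaks. Within the spans of the 12 clusters lie 121 genes that are no members, and 10 had a promoter peak (8.26%, 4.03 to 14.7), against 285 of 1113 other chromosome 19 genes outside the spans (25.6%, 23.1 to 28.3). The genes inside and outside the spans differ in promoter CpG, and their shares by CpG class are given below. Of the 121, 19 are zinc finger relatives by their symbol, such as ZFP30 and ZNF587B, and 2 of these had a peak. Of the other 102, 8 had one (7.84%, 3.45 to 14.9), and this interval overlapped that of the members. The 221 members without a peak were mostly far from any: the nearest summit lay over 10000 bp away for 217 of them and over 100000 bp for 160. The stretch between 2 neighbouring summits at 51366217 and 55116857 held the starts of 112 protein-coding genes, 39 of them members, and no peak at all. The local background under the peaks of members exceeded the lowest value in the list, 0.853 fragments, at 3 of 7 on 19p and at 0 of 9 on 19q. It did so at 18.8% of bound members and 19.3% of other bound chromosome 19 genes. Bound ZNF genes elsewhere had 44.4% and all bound genes 38.4%. With only peaks at the lowest background kept, members had a share of 5.49%, other chromosome 19 genes 20.1%, ZNF genes elsewhere 25.5% and all genes 19.9%. The part of local background in the result was not tested.

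Away from promoters, no ING5 summit was found inside the bodies of these genes either. Summits within 1000 bp of any protein-coding start were not counted. These include the summit at 57819744, in the promoter of ZNF587B, which lies inside ZNF586. Over 7.54 Mb of summed gene length, 0 of 237 members held a summit away from promoters (upper bound of the exact binomial interval 1.54%). Over 29.4 Mb, 78 of 1234 other chromosome 19 genes did (6.32%, 5.03 to 7.83). ZNF genes elsewhere had such a summit at 7 of 235 over 10.5 Mb (2.98%, 1.21 to 6.04), an interval that overlaps that of the members, and all genes at 4.53%. The 3′ exons, which encode the zinc finger arrays, therefore held no peak away from a start at this depth.

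CpG content of the promoter, which was higher at promoters with an ING5 peak over all genes, differed little between bound and unbound members. It was measured over the 300 bases from 250 before to 50 after the canonical start as CpG observed over expected. At ZNF254, counted as bound, the peak lies at another start. The median was 0.757 (quartiles 0.648 and 0.801) at the 16 bound members and 0.780 (0.627 and 0.876) at the 221 unbound. All protein-coding genes had a median of 0.777, those with a promoter peak 0.887, and ZNF genes elsewhere 0.821. Over 300 bases all 237 members had a median of 0.771, close to that of all genes, but over the 1000 bases on either side of the start their median was 0.596, against 0.637 in all genes and 0.675 in ZNF genes elsewhere. GC content over 300 bases was 60.0% at bound and 59.7% at unbound members, against 63.7% in all genes.

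In the 3 highest classes of promoter CpG over 300 bases, members had a peak at a lower share than other chromosome 19 genes and ZNF genes elsewhere, and the intervals did not overlap. Genes were split into 5 classes at 0.321, 0.697, 0.839 and 0.951. In the highest class, 1 of 29 members had a peak (3.45%, 0.0873 to 17.8), against 118 of 239 other chromosome 19 genes (49.4%, 42.9 to 55.9), 25 of 53 ZNF genes elsewhere (47.2%, 33.3 to 61.4) and 52.1% of all genes. The member in that class was ZNF554. In the next class it was 1 of 47 members (2.13%, 0.0539 to 11.3), ZNF302, against 35.0% (28.4 to 42.0) and 49.2% (35.9 to 62.5). In the middle class it was 9 of 78 (11.5%, 5.41 to 20.8) against 28.2% (22.3 to 34.6) and 48.4% (35.5 to 61.4). In the second lowest class, 5 of 78 members (6.41%, 2.11 to 14.3) compared with 10.9% (7.69 to 14.9) of other chromosome 19 genes and with 13 of 52 (25.0%) of ZNF genes elsewhere, and the members' interval overlapped those of both. In the lowest class only 5 members were found and none had a peak. Over the 2 lowest classes together, members had a peak at 5 of 83 (6.02%, 1.98 to 13.5). Other genes inside the cluster spans had one at 3 of 76 (3.95%, 0.822 to 11.1). Other chromosome 19 genes outside them had one at 41 of 496 (8.27%, 6.0 to 11.0), and all 3 intervals overlapped. Over the 3 highest classes together, members had a peak at 11 of 154 (7.14%, 3.62 to 12.4), other genes inside the cluster spans at 7 of 45 (15.6%, 6.49 to 29.5, overlapping that of the members) and other chromosome 19 genes outside them at 244 of 617 (39.5%, 35.7 to 43.5). With CpG taken over the 1000 bases on either side, a choice made after seeing the data, the highest class held only 9 members, of which 2 had a peak (22.2%, 2.81 to 60.0). That interval overlapped those of other chromosome 19 genes (52.9%, 44.2 to 61.3) and ZNF genes elsewhere (55.6%, 40.0 to 70.4). In the next class it was 1 of 38 members (2.63%, 0.0666 to 13.8) against 46.4% (38.7 to 54.3) and 55.4% (42.5 to 67.7), without overlap.

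**Figure D5:**
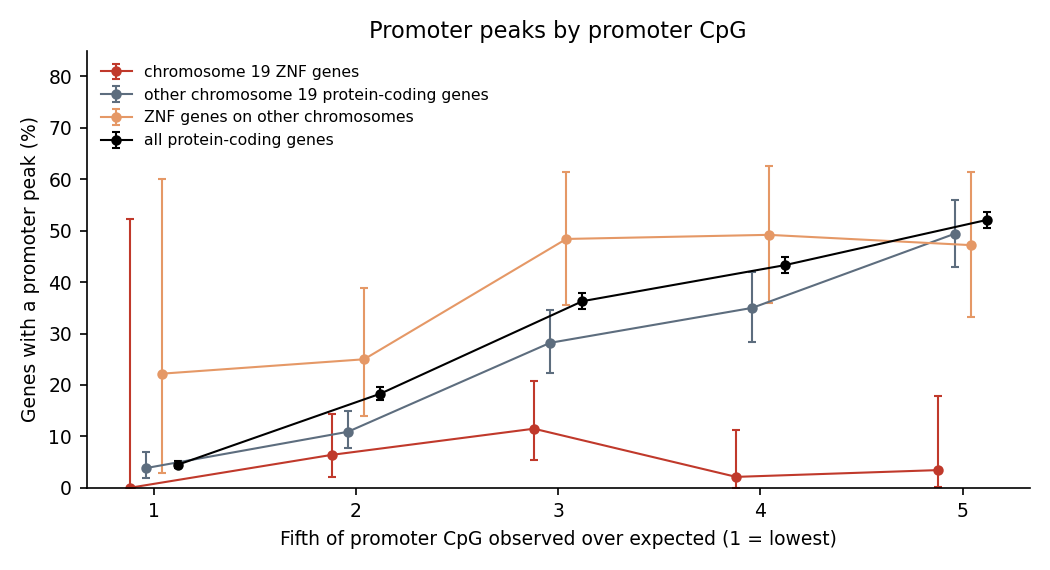
Share of genes with an ING5 promoter peak (y axis, percent) in 5 classes of promoter CpG observed over expected, from lowest to highest (x axis), for 4 groups; error bars are exact binomial 95% intervals. All genes climb from 4.51% to 52.1%, while chromosome 19 ZNF genes lie between 0% and 11.5%.

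Repeated sequence around the starts was scarce. Of the 237 windows of 1000 bp on either side of the canonical start, 22 held any run of 100 bases that occurs again on chromosome 19, and only 2 held such runs over more than 10% of their length, ZNF419 and ZNF773, with 15.7% each. None of the 22 belonged to a bound member. Copies on other chromosomes were not looked for.

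Short motifs were searched on both strands in the 300 bases of the RefSeq promoter table, which held 207 of the 237 members. For ZNF254, counted as bound, this is not the promoter with the peak, whose summit lies −53402 bp from the RefSeq start. The ZNF254 sequence shown above holds CCAAT and, on the other strand, CCGGAAG. The 8 motifs were chosen after the peaks were seen, and none contains another. CCGGAAG, the core of ETS factor sites, was found in 7 of 16 bound members (43.8%) and 85 of 191 unbound members (44.5%), against 13.5% of other chromosome 19 promoters, 37.3% of ZNF genes elsewhere and 14.4% of all 15213 promoters matched. It was therefore common in members whether bound or not. The NF-Y box CCAAT was found in 12 of 16 bound members (75.0%), in 50.3% of unbound members and in 36.5% of all promoters. The GC box GGGCGG was in 62.5% of bound and 70.2% of unbound members, against 59.4% of all. TGACG, the core of the element read by CREB, was in 31.2% of bound and 33.0% of unbound members, against 29.6% of all. The YY1-type AAGATGGC was in no bound member and in 6.81% of the unbound, against 3.98% of all. The NRF1-type GCGCATG was in 6.25% of bound and 4.19% of unbound members, against 5.86% of all. This motif replaced a longer NRF1-type form after the shares of the longer form, which was in no bound member, had been seen. The TATA-type TATAAA was in no bound member and in 2.09% of the unbound, against 9.57% of all. ACTACAA, part of the ZNF143 site, was in 6.25% of bound and 5.24% of unbound members, against 3.25% of all.

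Head-to-head starts of protein-coding genes were few among members. A protein-coding start on the other strand within 1000 bp upstream was found at 13 of 237 members, against 1875 of all 19819 genes. Of the 13, 1 was bound, ZNF302 (7.69%, 0.195 to 36.0). A start of any gene in that position was found at 43 members and at 3849 of all genes. Of the 43, 2 were bound (4.65%, 0.568 to 15.8), while 14 of 194 members with no head-to-head start of any gene were bound (7.22%). The interval for the 13 is wide, and the difference between these shares was not tested. Among other chromosome 19 genes with a head-to-head protein-coding start, 56 of 119 were bound (47.1%, 37.8 to 56.4). Among all genes with one it was 59.6%, against 25.8% of all genes with no head-to-head start of any gene. With a head-to-head start of any gene, 82 of 191 other chromosome 19 genes (42.9%) and 2011 of all 3849 (52.2%) were bound. Of the bound members, 12 were on the plus strand and 4 on the minus strand, where 130 and 107 of all members lie.

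The partners through which KRAB zinc finger proteins act had a higher share of peaks than the zinc finger genes. Of 19 corepressor genes, 11 had a promoter peak (57.9%, 33.5 to 79.7), where 30.9% of all genes had one, just below that interval. The summits at CBX3, CBX5 and PPHLN1 lay over 500 bp from a start, and this count was not repeated with narrower windows. TRIM28, the scaffold that binds the KRAB domain and itself a chromosome 19 gene near the end of 19q, had 16 fragments and 9.17-fold enrichment at −105 bp, above every chromosome 19 ZNF gene. SETDB1, the methyltransferase it recruits, and its cofactor ATF7IP had no peak. All 3 heterochromatin protein genes had one, with 15 fragments at CBX3 (summit at −714 bp), 12 at CBX5 (654 bp) and 9 at CBX1 (5 bp). Of the HUSH silencing complex, TASOR had 16 fragments (summit at 175 bp) and PPHLN1 18 (−898 bp). MPHOSPH8 had no peak, and neither did the effector MORC2. Of the nucleosome remodelling and deacetylase genes, CHD3 had 16 fragments, HDAC1 12 and CHD4 9, and HDAC2 had none. MORC3 had 10 fragments and SUMO2 13. DNMT1 and UHRF1, of maintenance DNA methylation and also on chromosome 19, had none, nor had SMARCAD1.

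Relatives on chromosome 19 that the symbol rule leaves out had a peak at 4 of 33 (12.1%, 3.40 to 28.2). ZFP36, which encodes an mRNA decay factor with another type of zinc finger, had 16 fragments, and the Krüppel-like gene KLF16 had 13. ZFP30 and ZNF587B had 9 fragments each. The labelled cell type could not be checked from this list: none of 15 liver marker genes, among them ALB, AFP and HNF4A, had a promoter peak (upper bound 21.8%), and peaks do not measure expression.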

How the data were processed

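HepG2 cells gave 1 ING5 ChIP library and 1 input library. Per the file headers, the authors ran MACS2 2.1.1.20160309 on fragment pairs, with 1e-05 as the limit on p, on alignment files whose names carry rmDupMulti, a sign that duplicate and multiply mapped reads may have been dropped. Per the submitters' processing notes, fastp 0.19.6, Bowtie2 and deepTools were also used. The deposited pileup is a coverage signal in fragments, the deposited fold enrichment a linear ratio to local background (pseudocount 1), and the significance of each peak is deposited as −log10 p and as −log10 q; all are the authors' values for single peaks. Local background was recovered from pileup and fold.

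The notes name GRCh37, but of 446 chromosome 19 summits 51.1% were at most 1000 bp from the outermost start of a protein-coding gene in GRCh38 and 19.1% in GRCh37, so GRCh38 was used, from the original exon positions in GENCODE 44. A gene's best peak had the highest −log10 p. Promoter composition and repeated 100-base runs were computed on GRCh37 sequence and joined by gene identifier; of 205 members with the same start, 204 had the same 300 bases in RefSeq GRCh38.p14. Zinc finger and KRAB patterns of the proteins were not analysed here. All 16 bound members are named, with members just outside the limit and the corepressor genes; other names were chosen after values were seen. One gene of the corepressor list is not reported here and was left out of its count. Members and lists were chosen with earlier results of these data known. Peak assignment was tested on simulated data. Python 3.11.15 and SciPy 1.17.1 were used.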

Additional observations from a re-analysis of the deposited data

How the results depend on the processing

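Members had a lower share of genes with a promoter peak than other chromosome 19 genes, ZNF genes elsewhere and all genes under all 10 alternatives run on these groups. Their share of 6.75% became 2.95% with a window of 200 bp, 2.11% with the 4304 most significant peaks and 0% (upper bound 1.54%) with the 1000 most significant. In that order, other chromosome 19 genes had 8.91%, 12.2% and 3.57%, and ZNF genes elsewhere 17.9%, 26.4% and 5.96%; members on 19q had 1.91% in the first 2, and on 19p 2.50% in the second. With all peaks tied at the lowest p of the 4304 kept as well, added after seeing the data, the 3 groups had 2.95%, 14.2% and 28.9%. These settings keep fewer peaks by construction. Other chromosome 19 genes had 19.2% with a window of 500 bp, 27.0% with 3000 bp, 19.9% with canonical starts, 20.1% with peaks at the genome-wide background, where ZNF genes elsewhere had 25.5%, and 20.6% with each peak given to the nearest gene. With members up to 250 kb apart, 8 of 17 clusters had no peak in place of 4 of 12, and 17.6% of end members were bound in place of 29.2%. With CpG over 1000 bases on either side of the start, added after seeing the data, the share with a peak among members of the 2 highest CpG classes was 6.38% (1.34 to 17.5) in place of 2.63% (0.320 to 9.18). Starts of the RefSeq table, added after seeing the data, gave 7.14% of 210 members. No paired analysis was possible because each group has 1 library. Peaks at members were within a few fragments of the lowest promoter peaks of all genes, so weaker binding was not detectable at this depth.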

Other observations

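ZNF genes on other chromosomes also form clusters, and the large ones had a higher share of genes with a promoter peak than the large ones of chromosome 19. By the same 500 kb rule, in clusters of 10 or more, 16 of 34 genes on other chromosomes had a promoter peak (47.1%, 29.8 to 64.9), against 9 of 215 on chromosome 19 (4.19%, 1.93 to 7.80). In clusters of 2 to 9 it was 30 of 93 (32.3%, 22.9 to 42.7) against 6 of 14 (42.9%, 17.7 to 71.1), and these intervals overlapped. In all, 30 of 75 ZNF genes in clusters of 5 or more on other chromosomes had a promoter peak (40.0%, 95% exact binomial interval 28.9 to 52.0), and 53 of 108 single ones did (49.1%, 39.3 to 58.9). Single clusters ran from none to most of their genes. Only those from ZNF48 to ZNF267, ZNF786 to ZNF862 and ZNF722 to ZNF92 had 10 or more. The joint share of large clusters thus rests on few clusters. On chromosome 16 the clusters from ZNF205 to ZNF597 and from ZNF48 to ZNF267 had 5 of 6 and 8 of 13, and on chromosome 7 the cluster from ZNF786 to ZNF862 had 6 of 10. The other chromosome 7 cluster, from ZNF722 to ZNF92, had 2 of 11, the chromosome 3 cluster from ZNF445 to ZNF501 had 1 of 7, and the X cluster from ZNF157 to ZNF630 had none of 5. These clusters were looked at after the chromosome 19 values were known, and no difference between them was tested.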
